A study of Rattus norvegicus with 2 samples.

Results

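The 5 genes described here are Tgfb3, Ltbp1, Thbs1, Ctgf and Chrd, taken by symbol from the 2325 rows of the deposited table. They encode a TGF-beta ligand, its latent binding protein, an activator of the latent ligand, a matricellular protein induced by the pathway and an antagonist of bone morphogenetic proteins (BMPs). The table compares 2 RNA sequencing libraries of bone marrow mesenchymal stem cells (bmMSCs), the adherent stromal cells of the marrow, from Sprague-Dawley rats at passage 3 to 5. One library came from untransfected cells, which served as negative control. The other came from cells 10 days after co-transfection with the genes of the pancreas factor Pdx1 and the endocrine progenitor factor Ngn3 (current symbol Neurog3). The control was not mock-transfected, so the procedure and the introduced genes differ together, and how many cells took up the factors, the vector and its promoter, and the number of animals are not stated in the sources at hand. No day is given for the untransfected cells, so time in culture cannot be told apart from transfection. With 1 library per condition no test across replicates was possible. Each interval below is an exact 95% interval of counting error alone, unless an assumed biological variation is named with it.

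TGF-beta is secreted in a latent complex, in which the mature ligand stays bound to its own propeptide and, through that propeptide, to a latent TGF-beta binding protein that anchors it in the extracellular matrix. Thrombospondin, integrins or proteases release the ligand, which then signals through type I and type II receptors to Smad2 and Smad3. BMPs of the same superfamily signal to Smad1, Smad5 and Smad9, and chordin holds them away from their receptors until a tolloid protease cleaves it. In marrow stroma TGF-beta is known to drive matrix production and the contractile, smooth-muscle-like state, and BMPs to drive bone formation.

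The bases before the annotated starts of these genes are shown as far as they lie outside the RefSeq gene bounds. The sequences are from RefSeq, build GRCr8, 5′ to 3′ on the strand of the gene, and capitals mark GGAATG, the letters known for TEAD factors, and CAGAC, a core known for Smads, or the reverse complement of either. The Ctgf sequence lies at chr1:22624615-22624864 (minus strand, current symbol Ccn2), the Thbs1 sequence at chr3:125510000-125510249 (plus strand) and the Ltbp1 sequence at chr6:26177347-26177551 (minus strand).
Ctgf: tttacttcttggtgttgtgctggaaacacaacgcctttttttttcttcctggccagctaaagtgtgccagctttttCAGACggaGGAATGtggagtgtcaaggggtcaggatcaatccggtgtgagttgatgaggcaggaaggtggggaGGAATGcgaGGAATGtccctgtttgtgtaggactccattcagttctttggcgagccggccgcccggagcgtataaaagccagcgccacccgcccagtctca
Thbs1: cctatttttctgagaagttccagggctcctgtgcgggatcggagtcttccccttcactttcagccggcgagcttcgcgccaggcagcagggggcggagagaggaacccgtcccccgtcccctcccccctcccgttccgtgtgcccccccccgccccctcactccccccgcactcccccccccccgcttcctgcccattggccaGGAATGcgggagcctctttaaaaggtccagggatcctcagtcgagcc
Ltbp1: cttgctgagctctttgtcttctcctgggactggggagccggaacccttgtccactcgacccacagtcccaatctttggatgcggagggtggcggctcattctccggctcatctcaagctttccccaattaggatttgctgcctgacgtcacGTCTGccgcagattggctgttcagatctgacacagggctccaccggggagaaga

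Ctgf carried 3 matches to GGAATG, all on its own strand, whose first bases lay 166, 101 and 92 bases before the start. It also carried 1 CAGAC, at 174 bases, and the only TATAAA of the 5 windows, at 31 bases. Thbs1 had 1 GGAATG at 47 bases, and Ltbp1 had 1 CAGAC on the opposite strand at 99 bases. The search covered both strands of the 250 bases before the start in 33469 RefSeq promoters. GGAATG was present in 12.1% of them, and at least 3 copies in 0.0807%. The cut of 3 copies equals the count in Ctgf, so this share is a description and not a test. CAGAC was present in 42.9% and TATAAA in 12.9%. The general E-box CANNTG, which is read by factors of the Neurog3 class, was in 65.5% of promoters and among these genes in Tgfb3 alone, 220 bases before its start. TAAT, the core read by homeodomain factors such as Pdx1, was in 57.0% of promoters and in the Tgfb3 and Ltbp1 windows, with 1 match each. At least 3 copies were in 2.54% of promoters for CAGAC, 11.5% for CANNTG, 18.7% for TAAT and 0.487% for TATAAA. None of the matches in these 5 windows overlapped another. A match of such short letters is a description of the window and not evidence of binding. The Tgfb3 and Chrd windows lie wholly inside the gene bounds and are not printed. Chrd held none of the 5 motifs, and at 78.4% G and C its window was above 98.3% of all promoters, against a median of 51.2%.

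**Figure D1:**
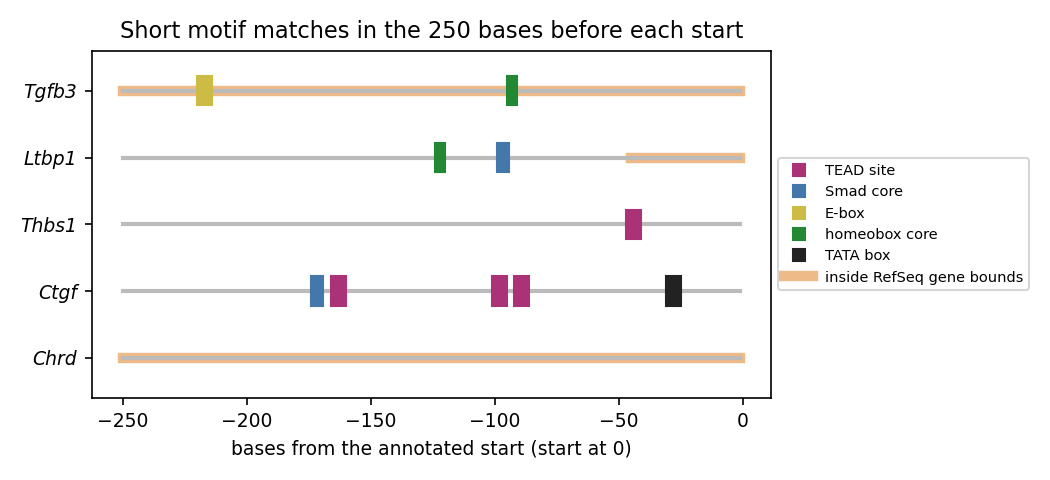
Positions of 5 short motifs in the 250 bases before the annotated start of each gene (horizontal axis in bases, start at 0). Coloured blocks are matches on either strand and the orange band marks bases inside the RefSeq gene bounds. Ctgf holds 3 matches to GGAATG and Chrd none of the motifs.

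In the transfected library 4 of the 5 genes, Tgfb3, Ltbp1, Thbs1 and Ctgf, were lower and 1, Chrd, was higher. A gene was called when the ratio of its reads, each divided by the total of its library, was at least 2 in either direction and the interval excluded 1. Over all 2325 rows, 36.5% were lower and 63.5% higher by that rule. The authors had already kept only genes whose level differed 2-fold or more between the libraries, so each listed gene was bound to be called and the count describes directions alone. Past 4-fold, Tgfb3 was the 1 lower and Chrd the 1 higher gene of the 5, beside 12.3% of all rows lower and 26.5% higher. Library totals implied by counts, gene lengths and RPKM (reads scaled by gene length and library total) were 7800831 untransfected and 7415094 transfected reads, of which the listed rows held 21.7% and 20.2%.

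Tgfb3, the ligand, had 18452 reads in the untransfected and 3336 in the transfected library. Per length this was 870 RPKM (interval 857 to 882) against 165 RPKM (160 to 171). The level was thus 5.26-fold lower after transfection (5.07 to 5.46), the largest decrease among the 5 genes. Of the 849 lower rows in the table, 23.1% had a larger decrease. Tgfb3 stood at rank 15 of all rows by untransfected RPKM and at rank 98 by transfected RPKM. Its row refers to a cDNA of 2720 bases with the coding part at bases 386 to 1624.

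Ltbp1, which ties the latent ligand to the matrix, had 7074 untransfected and 1833 transfected reads. Its level was 145 RPKM (142 to 149) in untransfected and 39.6 RPKM (37.8 to 41.4) in transfected cells, or 3.67-fold lower (3.48 to 3.86). The ligand and its binding protein were therefore both lower, and the counting intervals of their folds were separate. Tgfb3 stood at 5.99 times the RPKM of Ltbp1 in the untransfected library (5.83 to 6.16) and at 4.18 times in the transfected library (3.95 to 4.43). These intervals do not overlap, and the comparison is made within each library and so does not depend on how the libraries are scaled to each other.

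Thbs1, thrombospondin 1, binds the propeptide of latent TGF-beta and can free the ligand. It was the most abundant of the 5 genes in both libraries, at 111717 and 46102 reads, and ranked 1 and 2 by reads among all listed rows. Its level went from 3835 RPKM (3813 to 3858) to 1665 RPKM (1650 to 1680), 2.30-fold lower (2.28 to 2.33). This was the smallest fold among the 4 lower genes and the largest difference in level, -2170 RPKM. Thbs1 alone took 1.43% of the untransfected library (Clopper-Pearson interval 1.42 to 1.44%) and 0.622% of the transfected library (0.616 to 0.627%).

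Ctgf, connective tissue growth factor, is a secreted CCN family protein and a known target of TGF-beta. It had 22784 untransfected and 7138 transfected reads. The level was 1071 RPKM (1058 to 1085) against 353 RPKM (345 to 361), which is 3.03-fold lower (2.95 to 3.12). Ctgf thus lay between Ltbp1 and Thbs1 in fold, and 51.6% of the lower rows had a larger decrease.

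Chrd, chordin, the BMP antagonist, went the other way. It had 72 reads in the untransfected and 803 in the transfected library, or 2.78 RPKM (2.17 to 3.50) and 32.6 RPKM (30.4 to 34.9). The level was 11.7-fold higher after transfection (9.21 to 15.1), and 12.1% of the 1476 higher rows had a larger increase. Its untransfected level was the lowest of the 5 genes, and its interval of the fold was the widest because only 72 reads stood behind it. The row of Chrd refers to a cDNA of 3322 bases for which no coding part is recorded.

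**Figure D2:**
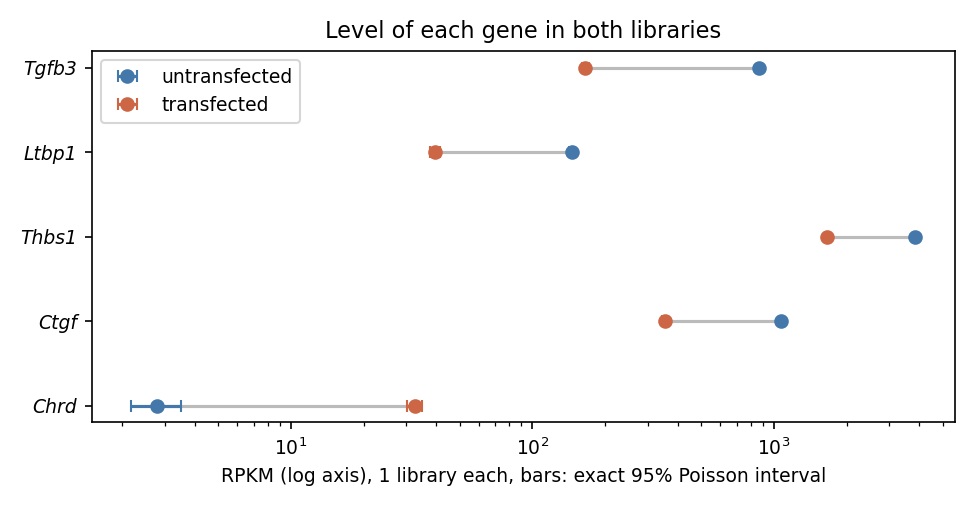
Level of each gene in RPKM on a log axis, in the untransfected (blue) and transfected (orange) library, 1 library each, with exact 95% Poisson intervals as bars (smaller than the points for most values). Tgfb3, Ltbp1, Thbs1 and Ctgf lie to the left in transfected cells and Chrd lies to the right, at 32.6 against 2.78 RPKM.

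The order of levels per length was Thbs1, Ctgf, Tgfb3, Ltbp1 and Chrd in both libraries, and no neighbouring pair had overlapping intervals. The order of the decreases was another one, with Tgfb3 ahead of Ltbp1, Ctgf and Thbs1. Again the counting intervals were separate, which leaves variation between libraries out. Distances between the genes shifted accordingly. Thbs1 stood at 4.41 times the RPKM of Tgfb3 in untransfected cells (4.34 to 4.48) and at 10.1 times in transfected cells (9.72 to 10.4). Ctgf stood at 1.23 times Tgfb3 in untransfected (1.21 to 1.26) and at 2.13 times in transfected cells (2.05 to 2.23). At the bottom of the order Ltbp1 and Chrd came close, from 145 and 2.78 RPKM to 39.6 and 32.6 RPKM. Together the 4 lower genes held 160027 untransfected reads, 2.05% of that library (2.04 to 2.06%), and 58409 transfected reads, 0.788% (0.781 to 0.794%).

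The size of these folds rests on the library totals, since other scalings moved every log2 ratio by the same amount. The sums of the listed rows moved them by 0.10, TMM scaling by -0.78 and median-of-ratios scaling by -1.20, the latter methods being computed on genes already selected for change. The 4 lower genes stayed lower and Chrd stayed higher under each of these scalings. On the log2 scale Tgfb3 was between -2.29 and -3.60 and Chrd between 3.66 and 2.35. For the lower genes this was fixed in advance with TMM and median-of-ratios scaling, because both lowered every ratio. Over all rows the higher genes made up 63.5% of calls with library totals, 46.4% with TMM and 37.8% with median-of-ratios scaling. Thbs1 lost its call when a biological coefficient of variation of 0.4 per library was assumed, with an interval of the ratio from 0.143 to 1.32. Under that assumption the interval for Ctgf ended at 0.999, so its call stood at the limit. Fewer cells with a transcript and less transcript per cell cannot be told apart in bulk RNA.

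**Figure D3:**
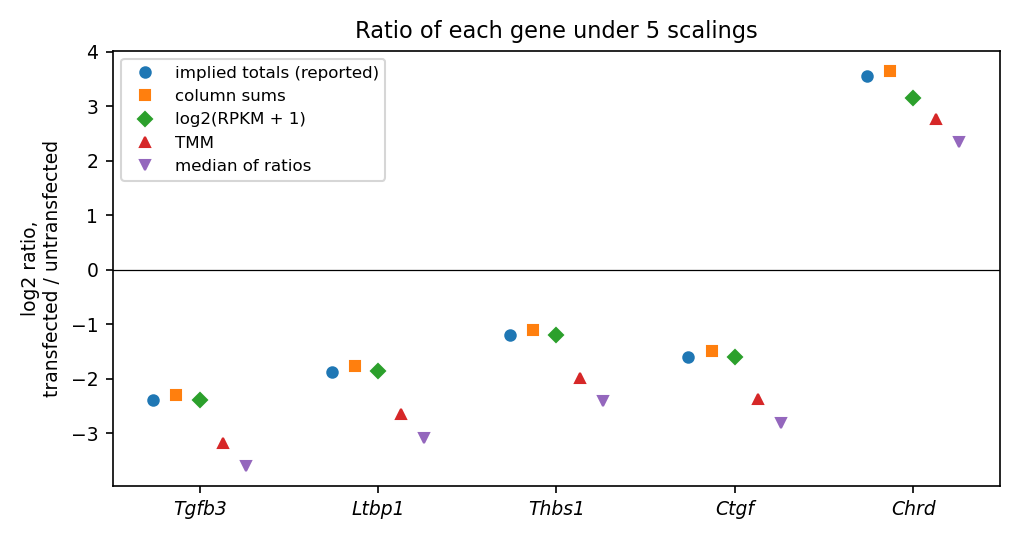
Log2 ratio of transfected over untransfected level (vertical axis) of each gene under 5 scalings, 1 library per condition. Tgfb3, Ltbp1, Thbs1 and Ctgf stay below 0 and Chrd above 0 under each, with Chrd at 2.35 under median-of-ratios scaling.

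The wider pathway was described with 9 lists holding 165 genes, of which 52 were in the table, 20 higher and 32 lower. Beside these counts and those of each list below, 63.5% of all rows were higher and 36.5% lower. The members are among these 52, and without them 19 were higher and 28 lower. The median log2 ratio of the 52 was -1.22, whereas that of all rows was 1.24. All 52 had a symbol and a RefSeq identifier, as had 1630 of the 2325 rows, so these sets are unlike. The median of those 1630 rows was not taken. With TMM scaling 14 were higher and 32 lower, and with median-of-ratios scaling 8 and 32. Both scalings lowered every ratio, so neither could end a lower call. With the assumed variation 16 were higher and 20 lower. Calls that a scaling ended are named below with the gene, and those that the assumed variation ended only in part. Genes of the lists that have no row were not analysed here, among them Tgfb1 and Tgfb2.

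Among 31 ligands of the TGF-beta superfamily 5 were listed, 2 higher and 3 lower, with a median log2 ratio of -1.24. Tgfb3 was by far the most abundant of them. Gdf15, a stress-induced member, had 80 and 10 reads and was 7.60-fold lower (3.93 to 16.5), and Mstn, myostatin, was 2.37-fold lower at 6.45 and 2.72 RPKM. Bmp4, a BMP that chordin binds, had 18 and 261 reads, at 1.31 and 20.0 RPKM, and was 15.3-fold higher (9.46 to 26.1). Inhbb, the beta-B subunit of activin and inhibin, was 3.33-fold higher (2.74 to 4.07), a call lost at log2 ratios of 0.96 with TMM and 0.54 with median-of-ratios scaling, which left Bmp4 as the 1 higher ligand. Chrd and Bmp4 were thus both higher. Per length Chrd stood at 2.12 times Bmp4 in untransfected (1.25 to 3.77) and 1.63 times in transfected cells (1.41 to 1.88), and these intervals overlap.

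Of 24 genes of ligand latency, storage and activation 9 were listed, 3 higher and 6 lower. Beside Thbs1 and Ltbp1 the lower ones included Itgb1, integrin beta 1 (1057 and 519 RPKM, 2.04-fold, not called at -0.92 with the sums of the listed rows), and Plaur, the urokinase receptor (67.2 and 18.1 RPKM, 3.72-fold). The higher ones included Fbn2, fibrillin 2, a microfibril protein (3.02 and 38.2 RPKM, 12.7-fold), and Mmp2, gelatinase A (459 and 1118 RPKM, 2.44-fold). Mmp2 was not called with TMM (0.51) or median-of-ratios scaling (0.08). The listed relatives of Ltbp1 and Thbs1 were on the other side of no change. Ltbp4, named with its values known, was 5.88-fold higher (44 and 246 reads), so that Ltbp1 stood at 133 times the RPKM of Ltbp4 in untransfected (98.8 to 183) and 6.15 times in transfected cells (5.38 to 7.06). Thbs2, the nearest relative of Thbs1, was 3.82-fold higher at 159 and 606 RPKM (7098 and 25759 reads). Its log2 ratio of 1.93 went to 0.73 with median-of-ratios scaling, which ended the call. Thbs1 stood at 24.1 times Thbs2 in untransfected (23.6 to 24.7) and at 2.75 times in transfected cells (2.70 to 2.79). How reads shared between such relatives were assigned is not stated in the sources at hand.

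Of 17 receptor genes 4 were listed, 3 higher and 1 lower, beside 63.5% of all rows higher. Tgfbr1, the type I receptor, was 3.34-fold higher (6.43 and 21.5 RPKM), Tgfbr2, the type II receptor, 2.43-fold higher (44.9 and 109 RPKM) and the BMP co-receptor Rgma 4.18-fold higher. Acvr1b, an activin type I receptor, was 2.09-fold lower, a call lost with the sums of the listed rows (-0.96). With TMM scaling 1 receptor, Rgma, was called higher, and with median-of-ratios scaling none was, at 0.54 for Tgfbr1, 0.08 for Tgfbr2 and 0.86 for Rgma. Within each library Tgfb3 stood at 19.4 times the RPKM of Tgfbr2 in untransfected (18.0 to 20.9) and at 1.52 times in transfected cells (1.43 to 1.61). Of 17 Smads and regulators 3 were listed. Smad3, which carries the TGF-beta signal, was 2.26-fold higher (8.77 and 19.8 RPKM) but was not called with TMM (0.40) and turned to a log2 ratio of -0.02 with median-of-ratios scaling. Smad7, an inhibitory Smad, was 2.18-fold lower (445 and 194 reads) and the decoy receptor Bambi 2.61-fold lower (96 and 35 reads).

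Extracellular antagonists and their proteases moved in both directions, 4 higher, Chrd among them, and 5 lower among 9 listed of 22. Over all rows 63.5% were higher and 36.5% lower. Chrd had the largest fold among the higher antagonists, with an interval that overlaps that of Bmper. Dcn, decorin, a proteoglycan that binds TGF-beta, was 4.27-fold higher at 190 and 814 RPKM, but not called with median-of-ratios scaling (0.89). The lower ones included Fstl1, a follistatin-like protein (761 and 325 RPKM, 2.34-fold), Crim1, a BMP-binding membrane protein (3.61-fold), Fst, follistatin, which binds activin (4.54-fold), and Fmod, fibromodulin (6.79-fold). Bmper and Tll2 were chosen after their values were seen. Bmper, a BMP-binding protein with chordin-type repeats, was 9.70-fold higher (6.72 to 14.4). Tll2, a tolloid-like protease of the family that cleaves chordin, had 0 untransfected and 28 transfected reads. This is at least 9.82-fold higher against a floor of 3 reads (exact lower limit 7.47). Per length Chrd stood at 2.56 times Bmper in untransfected (1.67 to 4.02) and 3.10 times in transfected cells (2.71 to 3.56).

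Ctgf belongs to a list of 32 genes known to be induced by TGF-beta in stromal cells. Of these 14 were listed, 3 higher and 11 lower, Ctgf among the 11, with a median log2 ratio of -1.48. Over all rows 63.5% were higher and 36.5% lower. With median-of-ratios scaling 0 were higher and 11 lower, beside 22.2% and 36.5% of all rows. The 11 could not have lost their calls, because that scaling lowered every ratio. With the assumed variation 3 were higher and 6 lower, beside 33.5% and 17.2% of all rows. The lower calls that it ended were those of Tagln, Tpm1, Itga11, Col4a1 and Smad7. Tagln, transgelin, was 2.98-fold lower, Acta2, smooth muscle actin, 3.58-fold lower, and Tpm1, tropomyosin, 2.03-fold lower, though not called with the sums of the listed rows (-0.92). Postn, periostin, was 4.52-fold higher at 313 and 1415 RPKM, and its log2 ratio of 2.18 went to 0.98 with median-of-ratios scaling, which ended the call. Among the 6 CCN genes 3 were listed, Ctgf itself, Nov and Wisp2, and all 3 were lower, beside 36.5% of all rows. Nov was 3.06-fold lower, close to Ctgf, and the quotient of Ctgf to Nov was 16.5 in untransfected (15.3 to 17.8) and 16.6 in transfected cells (14.6 to 19.1). Wisp2 was 27.3-fold lower (949 and 33 reads).

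Beside the increase of Chrd, genes known to be induced by BMPs moved in both directions. Of 19 such genes 8 were listed, 3 of them higher and 5 lower, beside 63.5% of all rows higher and 36.5% lower. Id1, an inhibitor of basic helix-loop-helix factors, was 5.72-fold higher (34 and 185 reads), Atoh8 was 7.47-fold higher and Id2 2.78-fold higher. Id2 was not called with TMM (0.70) or median-of-ratios scaling (0.28). Id4 was 4.48-fold lower (33 and 7 reads), and the bone genes Dlx3 (92 and 6 reads) and Alpl, alkaline phosphatase (74 and 6 reads), were 14.6-fold and 11.7-fold lower. Bambi and Smad7, given above, are also on this list.

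**Figure D4:**
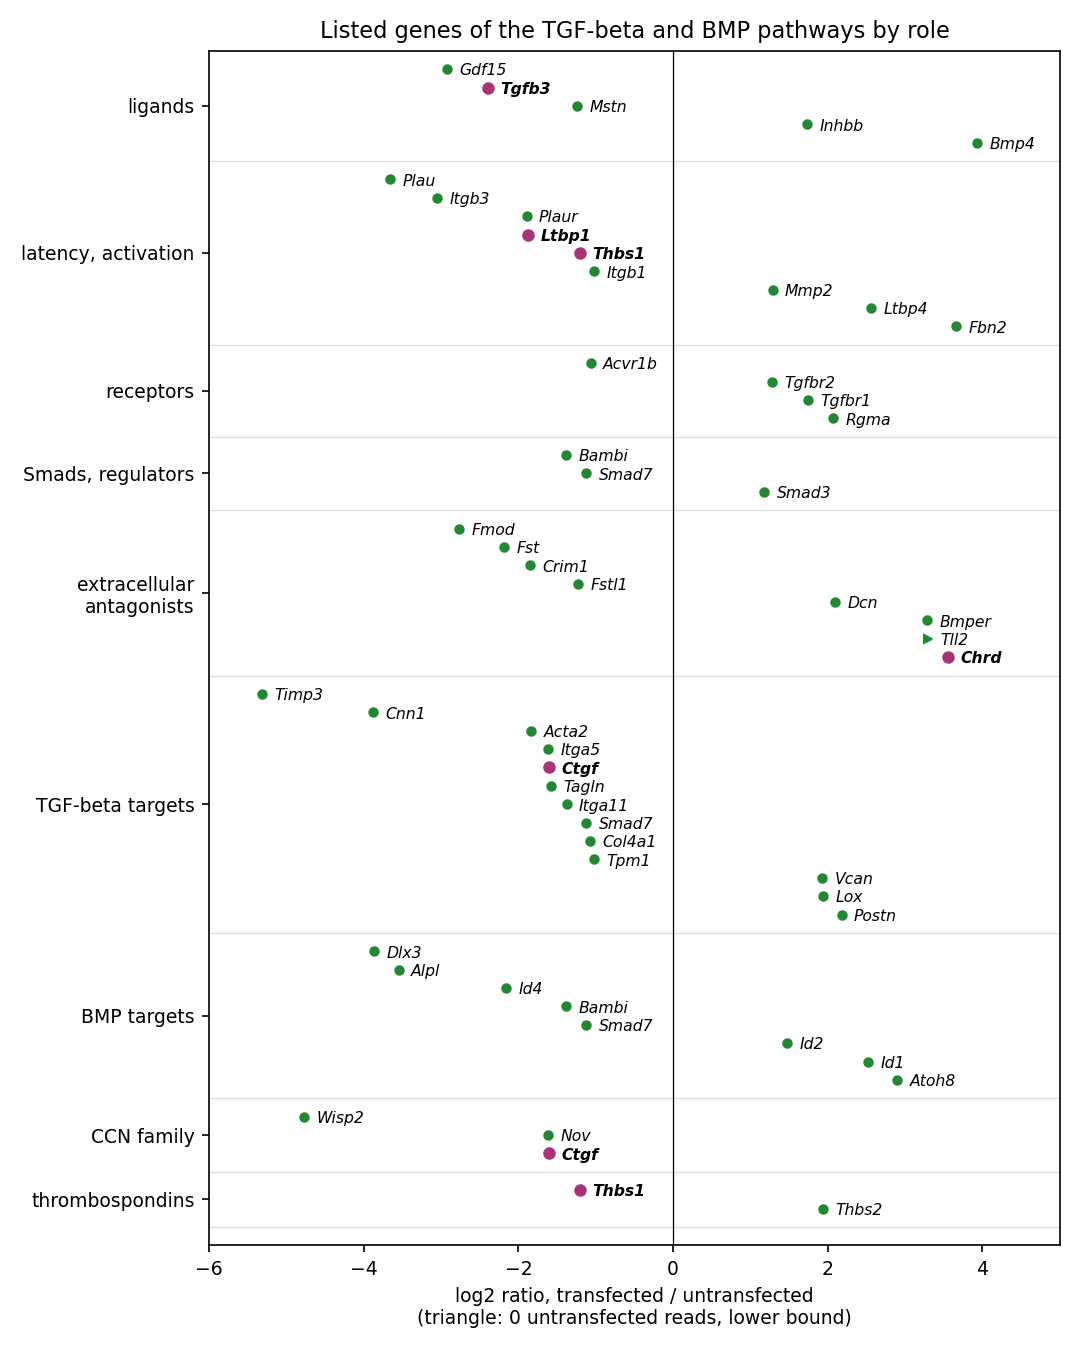
Log2 ratio of transfected over untransfected level (horizontal axis) of listed pathway genes, grouped by role, with Tgfb3, Ltbp1, Thbs1, Ctgf and Chrd in purple and a gene on several lists shown in each. The 3 listed CCN genes, Ctgf among them, lie below 0, whereas Thbs1 and Thbs2, and Ltbp1 and Ltbp4, lie on opposite sides.

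In the plane of mean log2 RPKM and log2 ratio, the measure of likeness over these 2 libraries, the nearest of 1560 symbol-bearing rat genes with reads in both libraries were as follows. For Tgfb3 they were Acta1, Aqp1 and Tpm2, for Ltbp1 they were Crim1, Myh11 and Gpx1, for Thbs1 they were Acta2, Tagln and Myl9, and for Ctgf they were Thy1, Flna and Myh9. For Chrd they were Fbn2 (3.02 and 38.2 RPKM), Itga4 (2.64 and 36.4 RPKM) and Sfrp2 (2.56 and 37.5 RPKM). The nearest gene lay at a distance of 0.588 from Tgfb3 and 0.638 from Thbs1, but at 0.117 from Ltbp1, 0.176 from Ctgf and 0.207 from Chrd (log2 units). Counts of Acta1 and Acta2 are uncertain, because the actins are near-identical and the handling of shared reads is unknown.

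**Figure D5:**
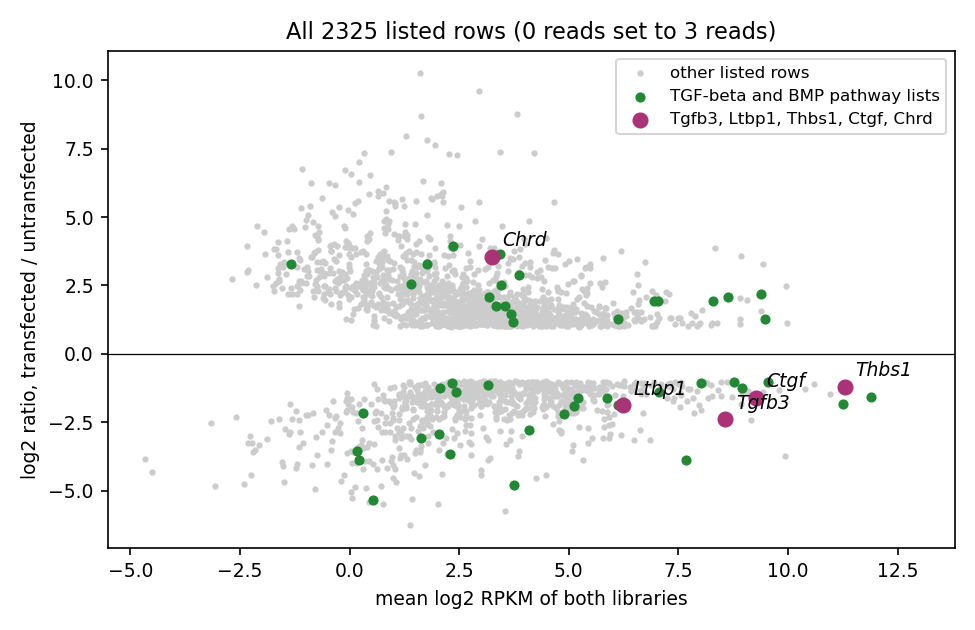
Log2 ratio of transfected over untransfected level (vertical axis) against mean log2 RPKM (horizontal axis) of all 2325 listed rows (grey), genes of the pathway lists (green) and the 5 genes (purple). The band around 0 is empty because the table holds selected genes. Thbs1, Ctgf, Tgfb3 and Ltbp1 lie at the abundant end and Chrd in the middle of the range.

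The deposited gene ontology columns gave the 5 genes few terms in common. Thbs1, Ctgf and Chrd shared glycosaminoglycan binding, held by 36 of 1429 rows with a function term (2.52%). Tgfb3 and Thbs1 shared platelet alpha granule, held by 8 of 1493 rows with a component term (0.536%), and the TGF-beta receptor signalling process, held by 14 of 1382 rows. Tgfb3 and Ctgf shared growth factor binding (21 rows), and Ltbp1 and Ctgf the extracellular matrix (45 rows).

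Beside these values, markers of the labelled cells and of other cell types were read from the same table. Of 13 stromal markers 6 were listed, 3 higher and 3 lower. Itgb1 and Thy1 (CD90, 1101 and 322 RPKM), both lower, were the most abundant. The summed level of the 6 went from 2231 to 991 RPKM, most of it from Itgb1 and Thy1. Alcam was also lower (2.78-fold). Vcam1 was 9.62-fold higher (27 and 247 reads), Cxcl12 2.82-fold and Pdgfra 2.58-fold higher. The calls of Cxcl12 and Pdgfra ended with TMM and with median-of-ratios scaling. Of 10 pericyte and smooth muscle markers 7 were listed, 1 higher and 6 lower, and their summed level went from 12247 to 3597 RPKM. Tagln (6522 and 2186 RPKM) and Acta2 (4648 and 1298 RPKM) made up most of that sum. The higher marker, Rgs5, had 0 untransfected and 39 transfected reads. The list shares Acta2, Tagln and Cnn1 with the TGF-beta targets. Of 14 blood markers 3 were listed (2 lower, 1 higher), led by Cd74 (96 and 5 reads) and Cd68 (5 and 26 reads), with 12.4 and 3.45 RPKM in sum. The call of Cd68, the higher one, ended with median-of-ratios scaling. Of 8 endothelial markers Egfl7 was listed, at 5.30 and 1.57 RPKM. The part of any such shift in the values of Tgfb3, Ltbp1, Thbs1, Ctgf and Chrd was not tested.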

How the data were processed

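The authors' deposited table gives read counts, unscaled whole numbers per gene, for 1 untransfected and 1 transfected library. It also gives RPKM, which the authors computed from the counts, with 0.001 for 0 reads. Per the file headers it further holds the authors' log2 ratio, p-value and false discovery rate (largest 0.000996). The authors' p-values compare 2 libraries and were not used. Genome build rn4 is named per the submitters' processing notes, while the aligner and counting tool are not stated in the sources at hand. Rows refer to cDNA clusters.

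Library totals were recovered as counts divided by length and RPKM, which gave 1 value in 2215 of 2216 untransfected and 2316 of 2316 transfected rows with reads. Ratios of scaled reads carry Clopper-Pearson intervals, and levels exact Poisson intervals (95%). Such intervals leave out everything but counting error, and reads amplified by PCR and lacking molecular identifiers do not each stand for 1 molecule. A count of 0 was set to 3 reads. Functions were tested on simulated data. Python 3.11.15, scipy 1.17.1, edgeR 4.0.16 (TMM) and DESeq2 1.42.0 (median of ratios) were used, and no count model was fitted.

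The members and lists were chosen with earlier results of these data known. Named were the 5 genes, listed genes of each pathway list (all where up to 8 were listed, otherwise the 6 of highest mean RPKM), the 2 highest of each marker list, and the 3 genes nearest to each of the 5. The other stromal markers and Rgs5 were added after their values were seen. Some genes that the rule named are left out of the text and figures, though not of the counts. All 5 identifiers matched RefSeq, which gave the promoters (GRCr8). The alternatives were other scalings, log2(RPKM + 1), an assumed biological variation and a 4-fold threshold.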

Additional observations from a re-analysis of the deposited data

How the results depend on the processing

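The calls of Chrd as higher and of Tgfb3, Ltbp1 and Ctgf as lower held under every scaling and on the log2(RPKM + 1) scale. TMM and median-of-ratios scaling lowered every ratio, so they could not end a lower call. Over all rows 849 were lower with library totals and with each of these 2 scalings. The calls of these 4 genes also held when biological variation of 0.4 (coefficient of variation per library) was assumed. That assumption ended the call of Thbs1 and left 3 lower genes. Past 4-fold, 1 gene (Tgfb3) was lower and Chrd higher. With the sums of the listed rows as totals the log2 ratios were -2.29 for Tgfb3, -1.77 for Ltbp1, -1.10 for Thbs1 and -1.50 for Ctgf. With TMM scaling they were -3.17, -2.65, -1.98 and -2.38, and 2.78 for Chrd. With median-of-ratios scaling they were -3.60, -3.08, -2.41 and -2.80, and 2.35 for Chrd. On the log2(RPKM + 1) scale Chrd was at 3.15. Of the 52 listed pathway genes 8 were higher with median-of-ratios scaling, 20 were lower with the assumed variation, and 11 were higher and 13 lower past 4-fold. Smad3 turned to -0.024 with median-of-ratios scaling, and the median of Thbs1 and Thbs2 turned from 0.36 to -0.41 with TMM and to -0.84 with median-of-ratios scaling. These turns follow from the shift of every ratio by 1 amount. Recomputed RPKM equals deposited RPKM by construction, since the totals came from it. No paired analysis was possible because each condition has 1 library, and for the same reason no replicate could be left out. Depth limits Chrd most, with 72 untransfected reads.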

Other observations

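Other listed genes of the TGF-beta target list, chosen after their values were seen, moved in both directions. Lox, which crosslinks collagen and elastin, was 3.84-fold higher (66.5 and 256 RPKM) and the proteoglycan Vcan 3.80-fold higher (63.4 and 241 RPKM), and neither was called with median-of-ratios scaling (0.74 and 0.72). The integrin subunits Itga5 and Itga11 were 3.08-fold and 2.60-fold lower, the basement membrane collagen Col4a1 2.11-fold lower (373 and 177 RPKM, not called at -0.97 with the sums of the listed rows), calponin Cnn1 14.7-fold lower (778 and 52.9 RPKM) and the protease inhibitor Timp3 39.9-fold lower (126 and 3 reads, interval 13.4 to 196). Among the activation genes Plau, the urokinase whose receptor is Plaur, was 12.7-fold lower (320 and 24 reads) and the integrin subunit Itgb3 8.30-fold lower (166 and 19 reads).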
